A study of Homo sapiens with 12 samples.

Results

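A set of 10 genes of cellular energy sensing and mTORC1 restraint was followed across all treatments: the upstream kinase STK11, the AMPK subunits PRKAA1, PRKAA2, PRKAB1, PRKAB2, PRKAG1 and PRKAG2, the sestrins SESN1 and SESN2, and DDIT4. They were chosen by gene name, which found all 10 among the 36601 genes measured, and all 10 were abundant enough to be tested. The cells were KP4, an established human line labelled as pancreatic ductal cell carcinoma with genotype WT, and total RNA was sequenced after ribosomal RNA depletion. The study asked how the NAMPT inhibitor FK866 changes the response of these cells to metformin, an inhibitor of mitochondrial complex I. Cells were exposed for 24 h to DMSO as vehicle, to metformin at 10 mM (Met), to FK866 at 5 nM (FK) or to both at these doses (Met+FK). Each treatment had 3 libraries, numbered as replicates 1 to 3 in the labels. Nothing in the sources used here says that the replicates were separate cultures, so the p-values measure only the spread between these libraries, which may be technical. The results are those of 1 cell line.

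AMPK is a heterotrimer that restrains energy-consuming processes when ATP falls. Its catalytic alpha subunit (PRKAA1 or PRKAA2) is phosphorylated by the tumour suppressor kinase LKB1, the product of STK11, its beta subunit (PRKAB1 or PRKAB2) is the scaffold that also binds glycogen, and its gamma subunit (PRKAG1 or PRKAG2) binds AMP, ADP and ATP. The growth-promoting kinase complex mTORC1 is held back by AMPK, by the sestrins, of which sestrin 2 is a leucine sensor that binds GATOR2, and by DDIT4 (also called REDD1), which acts through the TSC complex. SESN2 and DDIT4 are known as stress-induced genes that can be driven by the transcription factor ATF4, and SESN1 as a p53 target. Metformin is best known for activating AMPK at the level of the protein, which RNA levels do not report.

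Because SESN2 and DDIT4 were the members that moved most, the 250 bases before their RefSeq start sites (GRCh38.p14, plus strand for both) are shown for comparison, in lower case from 5' to 3', with capitals for any match to the motifs searched.
DDIT4, chr10:72273674-72273923: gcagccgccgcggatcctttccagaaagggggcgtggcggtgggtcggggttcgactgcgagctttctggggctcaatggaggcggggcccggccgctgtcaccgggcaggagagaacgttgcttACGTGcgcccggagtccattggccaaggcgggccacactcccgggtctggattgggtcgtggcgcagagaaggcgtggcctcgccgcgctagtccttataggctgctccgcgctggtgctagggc
SESN2, chr1:28259268-28259517: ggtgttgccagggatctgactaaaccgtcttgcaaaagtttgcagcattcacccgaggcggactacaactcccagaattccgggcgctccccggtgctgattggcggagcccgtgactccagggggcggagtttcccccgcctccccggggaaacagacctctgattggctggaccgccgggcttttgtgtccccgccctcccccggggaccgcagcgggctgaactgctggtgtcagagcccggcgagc
In all, 5 motifs were searched on both strands in these windows for the 10 members and for 27305 promoters in all. The C/EBP-ATF response element TGATGNAA, the cAMP response element TGACGTCA and the E-box CACGTG were found in 0 of the 10 members, and in 3.19%, 1.77% and 6.49% of all promoters. ACGTG, the core of the hypoxia response element and also part of the E-box, was found in 3 members (DDIT4, PRKAG1 and STK11) and in 18.7% of all promoters. In DDIT4 it lay 125 to 121 bases before the start, and the SESN2 window held none of the 5 motifs. The antioxidant response element TGACNNNGC was found in 1 member, PRKAA1, and in 11.03% of all promoters. These matches describe letters in a short window and say nothing of whether a factor is bound there.

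Libraries held between 30667735 and 41052203 read pairs in genes, and the members were counted with 162 to 11347 read pairs per library, for which counting error alone gives a coefficient of variation of 0.939% to 7.86%. The deposited values, called normalized counts below, are gene counts divided by a size factor per library. Among the epithelial markers, KRT8, KRT18 and SOX9 were abundant (means of 2728, 13174 and 4320 normalized counts over the 12 libraries), whereas KRT19, CDH1 and EPCAM were low (33.7, 47.4 and 8.93). The mesenchymal marker VIM had a mean of 103576, and the acinar markers CPA1 and AMY2A, the islet marker INS and the stromal marker DCN were at 0. Of 3 immune markers, PTPRC (196) and CD68 (829) were detected while CD3E was near 0. Summed, these 3 lay between 1101 and 1243 in DMSO and between 915 and 974 in Met. The sum of 7 epithelial markers, the 6 named above and KRT7, lay between 25226 and 26168 in DMSO and between 16390 and 19536 in Met. That difference lay mainly in KRT18 (means of 18307 in DMSO and 10421 in Met), while SOX9 (3781 and 4444), CDH1 (28.5 and 61.4) and EPCAM had higher means in Met than in DMSO. The part of either in the results was not tested. Libraries differed in base composition, FK replicate 2 the most. The slope of each gene's log2 deviation from its mean on the GC content of its transcript was -0.25 log2 units per 10 percentage points of GC in this library, against 0.00 and -0.02 in the other 2 FK libraries and 0.04 to 0.20 in DMSO. It lay between -0.14 and 0.08 in Met and between -0.05 and 0.06 in Met+FK. The mean slope was 0.14 in DMSO, -0.05 in Met, -0.09 in FK and -0.003 in Met+FK, so it was lower in each treatment than in DMSO. Results that moved with this slope are given below with and without a correction for it.

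The levels of the 10 genes were first compared with each other in vehicle-treated cells, per kilobase of the canonical transcript. PRKAG1 was the most abundant with 2022 ± 66.4 normalized counts per kilobase (SD, n = 3), followed by DDIT4 (1257 ± 78.4), STK11 (902 ± 28.1), PRKAG2 (876 ± 33.6), PRKAA1 (673 ± 100.3), PRKAB1 (523 ± 44.8) and SESN2 (413 ± 75.3). PRKAB2 (157 ± 6.87), PRKAA2 (122 ± 26.9) and SESN1 (34.3 ± 1.42) were the lowest. The ranges of neighbours overlapped for STK11 and PRKAG2, for PRKAB1 and SESN2, and for PRKAB2 and PRKAA2. Within libraries, PRKAB1 exceeded SESN2 and PRKAB2 exceeded PRKAA2 in all 3 DMSO libraries. STK11 and PRKAG2 changed order between libraries, so their order is not resolved. Per kilobase of the longest transcript, STK11 (514), PRKAG2 (565) and PRKAB1 (289) were lower, which placed STK11 and PRKAG2 below PRKAA1, and PRKAB1 below SESN2. In Met+FK, DDIT4 (5786 ± 444) and PRKAG1 (2346 ± 49.7) headed the list, with SESN2 (2316 ± 171) overlapping PRKAG1.

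Metformin raised 3 of the 10 genes beyond 1.5-fold: SESN2, DDIT4 and the beta 2 subunit PRKAB2. A gene was called where the limma adjusted p was under 0.05 and the fold change over 1.5, a rule that called 23.0% of the 15376 genes tested in Met against DMSO (12.8% higher). By adjusted p alone, which 50.9% of all genes passed, 7 members were higher and 1 was lower. The median log2 fold change of the members was 0.36, against 0.01 over all genes tested. Libraries of Met and DMSO did not overlap for 7 members (6 higher and 1 lower), and the same held for 56.9% of all genes. In bulk RNA, fewer cells of a kind and less RNA per cell cannot be told apart.

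**Figure D1:**
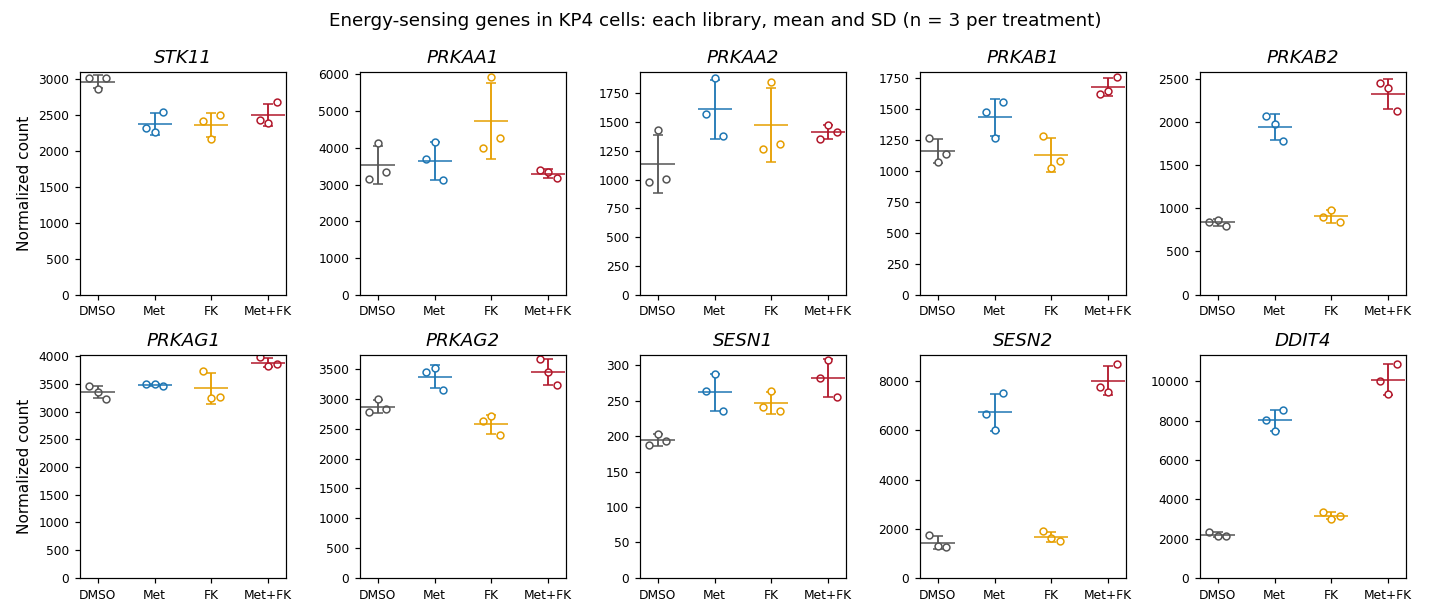
Normalized counts (y axes, starting at 0) of the 10 genes in every library, by treatment (x axes); circles are libraries, horizontal lines means and bars SD (n = 3). For SESN2, DDIT4 and PRKAB2 all Met and Met+FK libraries lie above all DMSO and FK libraries, for example 6032 to 8690 against 1248 to 1905 normalized counts for SESN2.

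SESN2, at chromosome 1, 28259518 to 28282491 on the plus strand (hg38), encodes sestrin 2. Its normalized counts were 1729, 1313 and 1248 in DMSO, 6664, 6032 and 7512 in Met, 1905, 1607 and 1501 in FK, and 7782, 7579 and 8690 in Met+FK. Every library with metformin exceeded every library without it, and the DMSO and FK libraries were interleaved. The log2 fold change in Met against DMSO was 2.24 ± 0.12 (SE, 4.74-fold, limma adjusted p = 7.78e-09), and that in Met+FK against FK was 2.27 ± 0.12 (adjusted p = 6.34e-09). FK866 alone gave a log2 fold change of 0.23 (95% interval -0.03 to 0.50, adjusted p = 0.162). With each library's trend on GC content and transcript length removed, that value was 0.41 and passed by adjusted p.

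DDIT4, at chromosome 10, 72273924 to 72276036 on the plus strand, encodes the TSC-dependent inhibitor of mTORC1. It had 2350, 2125 and 2102 normalized counts in DMSO, 8018, 7461 and 8544 in Met, 3353, 3003 and 3145 in FK, and 10038, 9346 and 10891 in Met+FK. The 4 treatments formed separate ranges in the order DMSO, FK, Met and Met+FK. Metformin raised DDIT4 with a log2 fold change of 1.87 ± 0.08 (SE, 3.65-fold, limma adjusted p = 7.28e-10). FK866 alone raised it by 0.53 ± 0.08 on the log2 scale (1.44-fold, adjusted p = 0.00273), under the 1.5-fold threshold. It was the member with the clearest response to FK866. With the trend on GC content and transcript length removed from each library, the same log2 fold change was 0.74 (adjusted p = 4.36e-08), which crossed that threshold.

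PRKAB2, at chromosome 1, 147155106 to 147172550 on the minus strand, encodes the beta 2 scaffold of AMPK. Its normalized counts were 845, 869 and 797 in DMSO, 2074, 1982 and 1778 in Met, 899, 982 and 839 in FK, and 2453, 2391 and 2128 in Met+FK. The libraries with metformin lay above all others without overlap, while DMSO and FK overlapped. The log2 fold change in Met against DMSO was 1.21 ± 0.09 (SE, 2.32-fold, limma adjusted p = 1.15e-07). It was 1.47 in Met+FK against DMSO and 1.36 in Met+FK against FK. FK866 alone gave 0.11 (95% interval -0.08 to 0.30). With the GC and length trend removed, the Met value was 0.95, still past both thresholds. The FK value turned to -0.18, which passed by adjusted p only when a replicate block was added (limma adjusted p = 0.0155). The calls of SESN2, DDIT4 and PRKAB2 in Met against DMSO stood under all 12 alternative settings and all 6 fits that left out a library of these treatments.

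**Figure D2:**
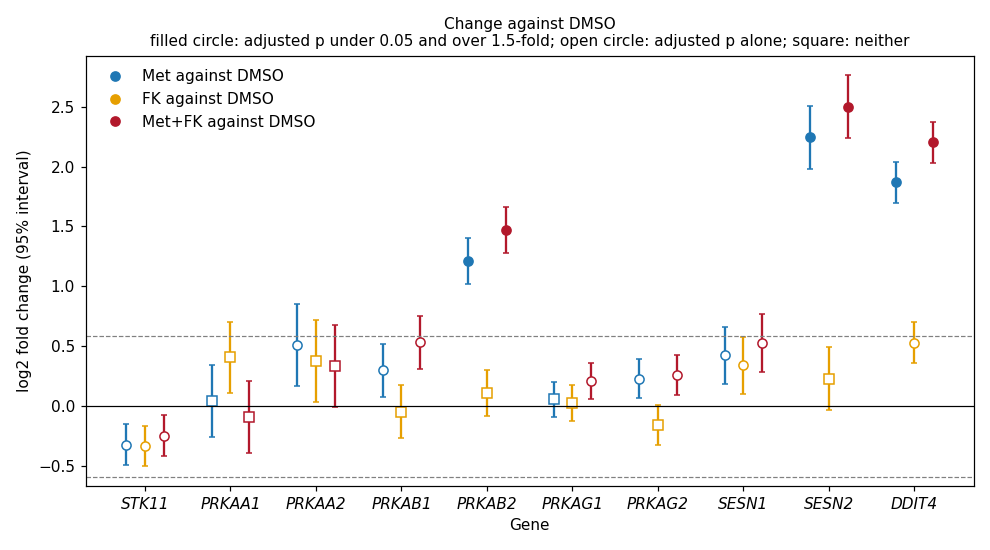
Log2 fold change (y axis) of each gene (x axis) in Met, FK and Met+FK against DMSO from the limma fit; bars are 95% intervals and dashed lines mark 1.5-fold. PRKAB2, SESN2 and DDIT4 lie far above the dashed line in Met (1.21, 2.24 and 1.87) and in Met+FK (1.47, 2.50 and 2.20), and STK11 lies below 0 in all 3 comparisons.

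The other AMPK subunits moved by less than 1.5-fold under metformin. PRKAB1 (beta 1, chromosome 12) had 1268, 1073 and 1139 normalized counts in DMSO and 1474, 1266 and 1558 in Met, which overlapped slightly. Its log2 fold change was 0.30 ± 0.10 (SE, limma adjusted p = 0.0247). PRKAG2 (gamma 2, chromosome 7) had 2788, 2997 and 2832 normalized counts in DMSO and 3455, 3521 and 3149 in Met, without overlap, and a log2 fold change of 0.23 ± 0.08 (adjusted p = 0.0213). Both passed by adjusted p in all 12 other settings, but neither was firm when a library was left out. PRKAB1 no longer passed without DMSO replicate 2 or 3 or Met replicate 1 or 3 (adjusted p up to 0.0890). PRKAG2 no longer passed without DMSO replicate 1 or 3 or Met replicate 1 or 2 (up to 0.0844). PRKAG1 (gamma 1, chromosome 12) gave 0.06 (95% interval -0.09 to 0.21), although its Met libraries (3461 to 3501) all lay just above those of DMSO (3237 to 3456).

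STK11, at chromosome 19, 1177558 to 1228435 on the plus strand, was lower in every treatment than in DMSO. It had 3020, 2862 and 3025 normalized counts in DMSO, 2329, 2263 and 2552 in Met, 2420, 2173 and 2505 in FK, and 2436, 2397 and 2687 in Met+FK. All 9 treated libraries were below all 3 DMSO libraries, and the 3 treated groups overlapped each other. The log2 fold changes were -0.32 in Met (limma adjusted p = 0.00381), -0.33 in FK (adjusted p = 0.0218) and -0.25 in Met+FK (adjusted p = 0.0177), each under 1.5-fold. STK11 has a GC-rich transcript (67.0% GC). With the GC and length trend removed, the log2 fold change was -0.16 in Met (adjusted p = 0.00803), -0.12 in FK (adjusted p = 0.113) and -0.15 in Met+FK (adjusted p = 0.0124). Scaled to the same library total, the Met+FK value was -0.16 (adjusted p = 0.0865). The FK value also no longer passed by adjusted p without DMSO replicate 1 or 3 or FK replicate 2 (adjusted p up to 0.101). The same held for Met+FK without DMSO replicate 1 or 3 or Met+FK replicate 1 or 2 (up to 0.0761).

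PRKAA1, PRKAA2 and SESN1 have AT-rich transcripts (36.9%, 35.2% and 40.6% GC), and the GC and length correction lowered the log2 fold change of each in Met and in FK against DMSO. PRKAA2 (catalytic alpha 2, chromosome 1) had 983, 1429 and 1003 normalized counts in DMSO, 1569, 1888 and 1378 in Met, 1269, 1852 and 1307 in FK, and 1351, 1474 and 1418 in Met+FK. Replicate 2 was the highest library in each treatment, and DMSO and Met overlapped. The log2 fold change in Met against DMSO was 0.51 ± 0.16 (SE, limma adjusted p = 0.0152). It was 0.08 (adjusted p = 0.225) with the GC and length trend removed. It also no longer passed by adjusted p without DMSO replicate 1 or 3 or Met replicate 2 (adjusted p up to 0.0795). Without DMSO replicate 2 or Met replicate 3 it was 0.69 or 0.62, past 1.5-fold.

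SESN1 (sestrin 1, chromosome 6) was the least abundant member. Its normalized counts were 187, 203 and 193 in DMSO, 263, 287 and 235 in Met, 242, 264 and 235 in FK, and 282, 308 and 255 in Met+FK. All treated libraries exceeded all DMSO libraries. Its log2 fold changes were 0.42 in Met (limma adjusted p = 0.00537), 0.34 in FK (adjusted p = 0.0439) and 0.53 in Met+FK (adjusted p = 0.00109). With the GC and length trend removed they were 0.14 (adjusted p = 0.206), 0.02 (adjusted p = 0.898) and 0.29 (adjusted p = 0.0109), so that only the Met+FK value passed. The FK value also no longer passed by adjusted p without DMSO replicate 1 or 3 or FK replicate 2 or 3 (adjusted p up to 0.183). The same held when the fit held only the 6 libraries compared and when no abundance filter was used. It also held without Met replicate 1 or Met+FK replicate 1 or 2, which are not part of this comparison.

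PRKAA1 (catalytic alpha 1, chromosome 5) had 3139, 4132 and 3331 normalized counts in DMSO, 3684, 4150 and 3115 in Met, 4004, 5926 and 4258 in FK, and 3398, 3334 and 3167 in Met+FK. The highest value was that of FK replicate 2, the library with the steepest GC slope. In Met against DMSO the log2 fold change was 0.05 (adjusted p = 0.801 in limma), and it turned to -0.30 (adjusted p = 4.63e-05) with the GC and length trend removed. In FK against DMSO it was 0.41 (adjusted p = 0.0506), 0.23 without FK replicate 2, and -0.01 (adjusted p = 0.891) with the trend removed. It passed by adjusted p in 7 of the 12 other settings, among them edgeR (adjusted p = 0.0449) and DESeq2 (0.0246). Whether the slopes come from the treatments or from library preparation was not tested.

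**Figure D3:**
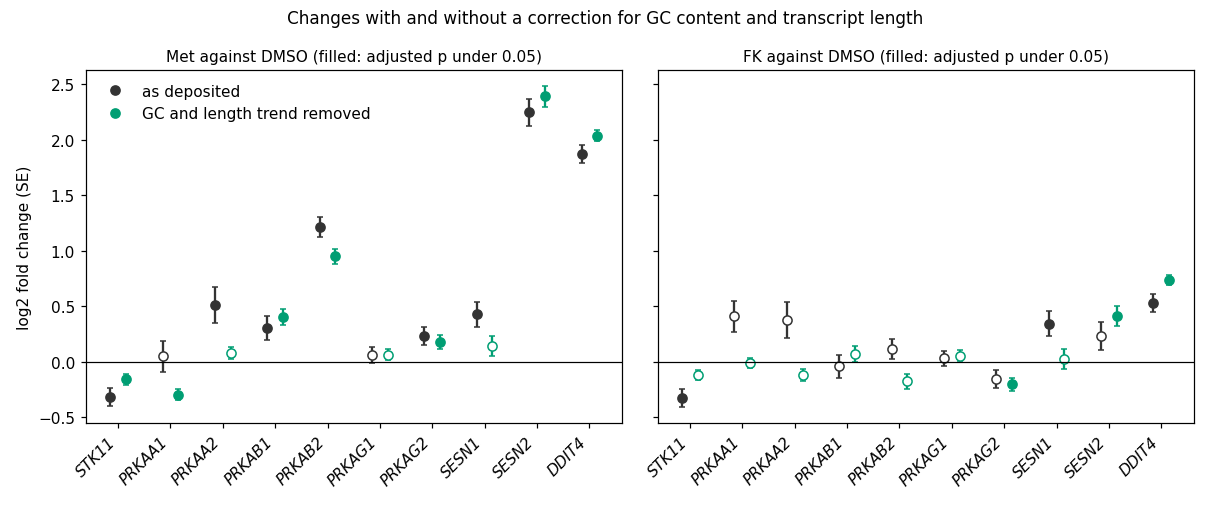
Log2 fold change (y axes) of each gene (x axes) in Met against DMSO and in FK against DMSO, from the deposited values and with each library's trend on GC content and transcript length removed; bars are SE and filled circles have a limma adjusted p under 0.05. The correction takes PRKAA2 in Met from 0.51 to 0.08 and PRKAA1 in FK from 0.41 to -0.01, whereas SESN2 goes from 2.24 to 2.39 and DDIT4 from 1.87 to 2.03 in Met.

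FK866 alone called 0 of the 10 genes by adjusted p and 1.5-fold, a rule that called 3.49% of all genes. By adjusted p alone, 2 members were higher (DDIT4 and SESN1) and 1 was lower (STK11), where 21.1% of all genes passed, and the unadjusted p was under 0.05 for 5 members and 42.2% of all genes. PRKAB1 gave a log2 fold change of -0.04 (95% interval -0.26 to 0.18) and PRKAG1 0.03 (-0.12 to 0.18). The DMSO and FK libraries did not overlap for 4 members (38.8% of all genes). The median log2 fold change was 0.17, against -0.02 over all genes. Same-numbered DMSO and FK libraries deviated together, and in the fit blocked on replicate number PRKAA1 (adjusted p = 0.00280), PRKAA2 (0.00435) and PRKAG2 (0.0381, log2 fold change -0.16) passed as well, which made 6 by adjusted p alone, where 44.6% of all genes passed under the block. No member passed 1.5-fold under the block. With the GC and length trend removed, 3 members passed by adjusted p alone, where 11.1% of all genes did. They were DDIT4, SESN2 and PRKAG2 (log2 fold change -0.21). edgeR and DESeq2 called 0 members by both criteria, as limma did.

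Adding FK866 to metformin called 0 of the 10 genes, in a comparison that called 0.0585% of all genes. The unadjusted p was under 0.05 for 4 members and 6.84% of all genes, and edgeR and DESeq2 also called 0 by both criteria. Met+FK libraries lay above all Met libraries for 5 members (PRKAB1, PRKAB2, PRKAG1, SESN2 and DDIT4), where 7.88% of all genes did so. DDIT4 gave a log2 fold change of 0.33 (95% interval 0.16 to 0.50, limma adjusted p = 0.222), and the adjusted p was 0.0179 with the replicate block, 0.0340 with DESeq2 and 0.00418 with the GC and length trend removed. PRKAB2 gave 0.26 (0.07 to 0.45, adjusted p = 0.540), with an adjusted p of 0.0338 once the trend was removed. SESN2 gave 0.25 (-0.01 to 0.52), PRKAB1 0.23 (0.01 to 0.45) and PRKAG1 0.16 (0.01 to 0.31). For the remaining 5 members the estimates were -0.18 (PRKAA2), -0.14 (PRKAA1), 0.03 (PRKAG2), 0.07 (STK11) and 0.10 (SESN1). All 10 of the intervals ended below 1.5-fold higher, which is 0.58 on this scale.

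In cells treated with both drugs, the same 3 genes were called against DMSO and against FK. Met+FK against DMSO called PRKAB2, SESN2 and DDIT4, with log2 fold changes of 1.47, 2.50 and 2.20 (limma adjusted p of 1.18e-08, 1.37e-09 and 6.45e-11), where 25.1% of all genes were called (13.7% higher). By adjusted p alone 7 members were higher and 1 was lower, beside 52.2% of all genes, and the median log2 fold change was 0.43, against 0.01 over all genes. PRKAB1 reached 0.53 (adjusted p = 0.000597), from 1622, 1648 and 1762 normalized counts in Met+FK that lay above all DMSO libraries. PRKAG1 reached 0.22 (adjusted p = 0.0183) and PRKAG2 0.26 (adjusted p = 0.0102). STK11 and SESN1 are given above. PRKAA2 gave 0.33 (adjusted p = 0.0938 in limma) and PRKAA1 -0.09 (adjusted p = 0.617), which was -0.36 (adjusted p = 4.37e-06) with the GC and length trend removed. The gamma genes no longer passed by adjusted p without DMSO replicate 3 or Met+FK replicate 1 for PRKAG1 (adjusted p up to 0.0714) and without Met+FK replicate 1 for PRKAG2 (0.0563). Met, FK and Met+FK share the DMSO libraries, so these comparisons are not independent.

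Against FK, Met+FK called PRKAB2 (1.36), SESN2 (2.27) and DDIT4 (1.67), where 18.6% of all genes were called (9.27% higher). PRKAB1 (0.58) and PRKAG2 (0.42) rose and PRKAA1 fell (-0.50, adjusted p = 0.0103 in limma) by adjusted p alone, which 42.1% of all genes passed. Without FK replicate 1, PRKAB1 (0.67) and PRKAA1 (-0.61) passed 1.5-fold too, and without FK replicate 2 the PRKAA1 value was -0.32. PRKAG1 (0.19, adjusted p = 0.0446) still passed by adjusted p in 1 of the 6 fits that left out a library compared. STK11 (0.08), PRKAA2 (-0.04) and SESN1 (0.19) did not pass. Met against FK called PRKAB2 (1.10), SESN2 (2.01) and DDIT4 (1.34), where 15.1% of all genes were called (8.08% higher). PRKAB1 (0.35) and PRKAG2 (0.39) passed by adjusted p alone, as 36.7% of all genes did. STK11 (0.01), PRKAA1 (-0.36), PRKAA2 (0.14), PRKAG1 (0.03) and SESN1 (0.08) did not pass.

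Whether FK866 acted differently in metformin-treated and vehicle-treated cells was tested as an interaction, (Met+FK minus Met) minus (FK minus DMSO). It passed an adjusted p of 0.05 for 0 of the 10 genes and for 0.0585% of all genes, and the unadjusted p was under 0.05 for 3 members and 30.5% of all genes. edgeR passed 0 members and DESeq2 1, STK11, where DESeq2 passed 5.93% of the genes to which it gave an adjusted p. The 3 members were STK11 (0.40, 95% interval 0.16 to 0.64), PRKAA1 (-0.54, -0.97 to -0.12) and PRKAA2 (-0.55, -1.04 to -0.07). With the replicate block all 3 passed (limma adjusted p of 0.00584, 0.00960 and 0.00902), as did 32.0% of all genes. With the GC and length trend removed they were 0.13, -0.05 and 0.01. Under that correction DDIT4 (-0.44, adjusted p = 0.00775) and PRKAB2 (0.48, adjusted p = 0.0282) passed instead, beside 0.600% of all genes. SESN2 had an interaction of 0.02 (95% interval -0.35 to 0.39). In the uncorrected fit the other members gave 0.27 (PRKAB1), 0.19 (PRKAG2), 0.14 (PRKAB2), 0.13 (PRKAG1), -0.20 (DDIT4) and -0.24 (SESN1).

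Which isoform of each AMPK subunit predominates was compared within libraries, where scaling between libraries cancels. The GC and length trend does not cancel where paired genes differ in GC content, as PRKAB2 (41.2%) and PRKAB1 (51.8%) do. SESN2 (59.6%) and SESN1 (40.6%) differ more. Removal of the trend lowered the log2 fold change of PRKAB2 in Met from 1.21 to 0.95 and raised that of PRKAB1. Part of the rise of PRKAB2 to PRKAB1 in Met therefore moved with the trend. Shares, ratios and sums below are uncorrected. Per kilobase, PRKAB2 made up 23.1% ± 1.83 (SD, n = 3) of both beta genes in DMSO, 36.1% ± 3.69 in Met, 25.2% ± 3.09 in FK and 36.5% ± 2.75 in Met+FK. PRKAA2 made up 15.2% ± 0.929 of both alpha genes in DMSO, 19.8% ± 0.527 in Met, 14.9% ± 0.203 in FK and 19.4% ± 1.01 in Met+FK. The libraries with metformin lay above the others without overlap for both shares. PRKAG2 made up 30.2% ± 1.13 of both gamma genes in DMSO and 32.8% ± 1.17 in Met, without overlap. SESN2 made up 92.2% ± 1.41 of SESN2 and SESN1 together in DMSO and 97.6% ± 0.475 in Met. SESN3, which is not a member and is given below, is left out of this share. The shares depend on the transcript lengths assumed, but the ratios between treatments do not.

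Expressed as log2 ratios, PRKAB2 to PRKAB1 was higher than in DMSO by 0.91 in Met and 0.94 in Met+FK, PRKAA2 to PRKAA1 by 0.46 and 0.42, and SESN2 to SESN1 by 1.82 and 1.97, in each case without overlap. Each of these had an exact two-sided permutation p of 0.1, the smallest that 3 against 3 allows, and 0.171 adjusted over 12 tests, so none can reach 0.05. PRKAG2 to PRKAG1 differed by 0.17 in Met (exact permutation p = 0.1) and 0.05 in Met+FK (exact permutation p = 0.5). In FK the 4 uncorrected differences lay between -0.19 and 0.16, and the libraries overlapped those of DMSO. With the GC and length trend removed, the log2 fold change in FK was 0.41 for SESN2 and 0.02 for SESN1, against 0.23 and 0.34 before. For PRKAB2 and PRKAB1 it was -0.18 and 0.07, against 0.11 and -0.04 before. The FK differences of SESN2 to SESN1 (-0.11) and PRKAB2 to PRKAB1 (0.16) therefore changed sign with the trend removed.

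**Figure D4:**
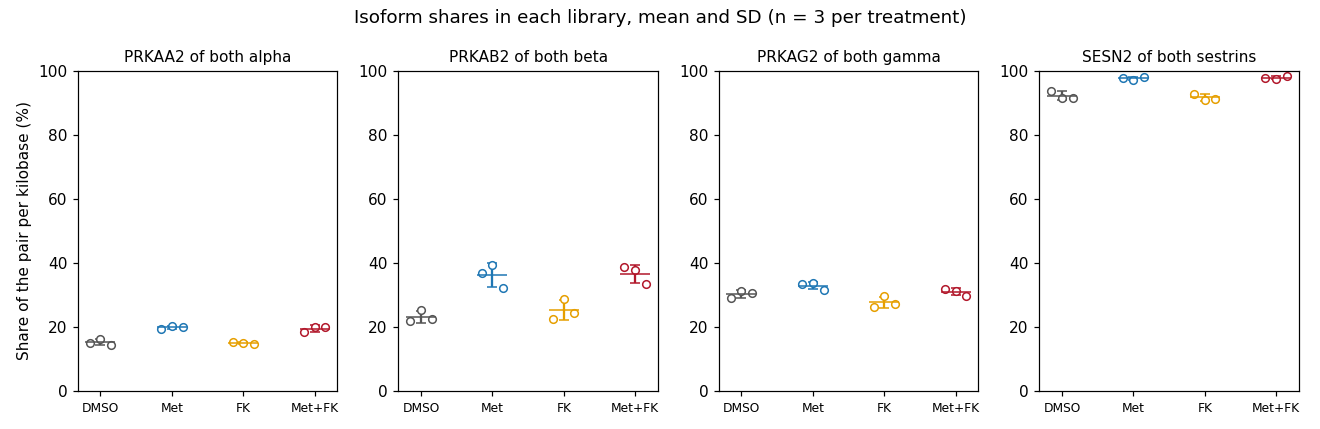
Share of PRKAA2, PRKAB2, PRKAG2 and SESN2 in the summed level of the 2 members of each kind, in percent of normalized counts per kilobase (y axes), by treatment (x axes); circles are libraries, lines means and bars SD (n = 3). The PRKAB2 share is 32.1% to 39.4% in Met and 33.4% to 38.6% in Met+FK, above 21.7% to 28.6% in DMSO and FK.

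Summed over isoforms, the level of the beta genes in Met was 1.49 times and in Met+FK 1.75 times that in DMSO, against 1.08 and 1.17 times for the gamma genes and 1.09 and 0.981 times for the alpha genes. The summed beta level per kilobase was 679 ± 44.3 (SD, n = 3) in DMSO, 1010 ± 59.5 in Met, 678 ± 59.7 in FK and 1191 ± 1.16 in Met+FK. The alpha genes summed to 794 ± 127 in DMSO, 867 ± 126 in Met, 1058 ± 233 in FK and 779 ± 21.6 in Met+FK, with overlapping libraries in DMSO, Met and Met+FK. The FK libraries (898 to 1326) also overlapped those of DMSO (703 to 939) and Met (740 to 992). The highest of them was FK replicate 2, the library with the steepest GC slope. The gamma genes summed to 2898 ± 69.9 in DMSO and 3133 ± 73.6 in Met. Their ratio to the beta genes was 4.28 ± 0.264 in DMSO, 3.11 ± 0.237 in Met, 4.21 ± 0.118 in FK and 2.85 ± 0.0939 in Met+FK, with no overlap between libraries with and without metformin. These sums describe RNA and not the composition of the AMPK complex.

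The genes most alike in pattern were named by the largest Pearson r over the 12 libraries among 11520 genes with a mean of at least 100, as a description, since the points share treatments, depth and base composition. For SESN2 they were TRIB3 (r = 0.999), a pseudokinase induced by stress, ADM2 (0.996) and CARS (0.995), a cysteinyl-tRNA synthetase. For DDIT4 they were ATF6 (0.992) and ERN1 (0.989), both sensors of unfolded protein in the endoplasmic reticulum, and CHAC1 (0.991), a glutathione-degrading enzyme. For PRKAA2 they were CALD1, CRYBG3 and CHIC1 (0.983, 0.982 and 0.981), and for SESN1 SLC30A4, SPIN1 and UTP25 (0.974, 0.973 and 0.972).

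Around the members, ATF4 targets of the integrated stress response rose together with metformin. All 16 of 16 were called higher in Met against DMSO, with a median log2 fold change of 1.51, where 12.8% of all genes were called higher. NUPR1 (3.01), DDIT3 (2.82), TRIB3 (2.63) and ATF3 (2.62) led. In FK 4 of the 16 were called, with a median of 0.34, beside 3.49% of all genes. In Met+FK against Met 1 was called, ATF3 (0.66), beside 0.0585% of all genes. Targets of other regulators of the members were counted in the same way. Of 15 p53 targets 4 were higher in Met (GADD45A 1.47, BBC3 1.30, TP53INP1 1.10 and RRM2B 0.64) and 0 lower, with a median of 0.08. The paper could not detect p53 protein in KP4 cells, and what raised these genes was not tested. Of 12 tested HIF targets 3 were higher, led by NDRG1 (1.03), and LDHA was lower (-0.77). Of 11 FOXO targets 4 were higher, led by GADD45A, which is also on the p53 list, and IRS2 (1.25). Of 7 tested glucocorticoid receptor targets, TSC22D3 (1.69) and KLF9 (0.96) were higher and SGK1 was lower (-0.84).

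Genes of the AMPK pathway itself came next. None of the 7 partners and other kinases upstream of AMPK was called in Met against DMSO (median 0.03), and 2 passed by adjusted p alone, CAB39L (0.42) and MAP3K7 (0.41), the scaffold of the LKB1 complex and the kinase TAK1. Of all genes, 23.0% were called in this comparison and 50.9% passed by adjusted p alone. Of 12 AMPK-related kinases that LKB1 also activates, MARK1 was called (0.85, from a mean of 20.9 to 38.4 normalized counts). Of 15 AMPK substrates, 3 were called higher: the glycolytic regulator PFKFB2 (0.97), the folliculin partner FNIP1 (0.82) and the transcription factor FOXO3 (0.78). By adjusted p alone 5 substrates were higher and 5 lower, the latter led by the RAB regulator TBC1D1 (-0.41, from a mean of 3922 to 2955 normalized counts). Of the relatives outside the 10 genes, PRKAG3 was at 0 in every library, SESN3 gave 0.01 in Met (means of 190.0 and 191 normalized counts in DMSO and Met) and DDIT4L, with means of 7.82 to 14.7, gave 0.61 (limma adjusted p = 0.223).

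On the mTORC1 side, 0 of 6 core genes with RHEB and 0 of 3 TSC complex genes were called in Met, where 23.0% of all genes were. By adjusted p alone, which 50.9% of all genes passed, TSC1 (0.42) and DEPTOR (0.32) rose and RPTOR (-0.28) and AKT1S1 (-0.37) fell. Of 12 RAG GTPase and LAMTOR genes, which place mTORC1 on the lysosome, 5 were called higher, among them RRAGD (1.28), RRAGB (1.02), RRAGC (0.86) and FNIP1, which is also an AMPK substrate. Of 12 GATOR and KICSTOR genes, MIOS was called (0.59), a GATOR2 component. Among the other amino acid sensors, BMT2 (also called SAMTOR) rose (0.72) and CASTOR2 fell (-1.01, from 3644 ± 394 to 1805 ± 195 normalized counts, SD, n = 3). In FK against DMSO, 0 genes of the AMPK substrate list and of the RAG and LAMTOR list were called, and by adjusted p alone 4 and 2 were higher and 0 and 1 lower. Of all genes, 3.49% were called in FK against DMSO and 21.1% passed by adjusted p alone.

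In all, 4 members share exonic bases with a gene on the other strand (STK11 with CBARP, PRKAG1 with DDN-AS1, PRKAG2 with PRKAG2-AS1 and SESN1 with an unnamed gene), over 2.26% to 4.40% of their canonical transcripts. The strand setting of the counting is not given in the sources used here, so reads in those stretches cannot be assigned.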

How the data were processed

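RNA of KP4 cells was sequenced in 12 libraries. The authors used cutadapt for trimming, STAR for alignment to hg38, featureCounts for counting and DESeq2 for normalization. The deposited signal is never negative and consists of gene counts divided by a size factor (0.867 to 1.21), and 100% came out as whole read pairs within 0.01 reads once divided by each library's smallest step. Columns were matched to treatments by name. Depth is the sum of recovered read pairs (median 34767231). Replicate libraries had chi-squares of 5.31 to 46.8 per degree of freedom, so none was a copy.

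Treatments were compared by limma-trend (limma 3.58.1, R 4.3.3) on log2(normalized count + 1), fitted to all 12 libraries together for the 15376 genes averaging at least 10, with Benjamini-Hochberg adjustment in each of 6 comparisons and the interaction. Fold changes are on this log2 scale. DEGs had an adjusted p under 0.05 and over 1.5-fold, and the interaction had no fold threshold. edgeR 4.0.16 and DESeq2 1.42.0 on the recovered counts, other scalings, filters and pseudocounts (0.1 and 10), a replicate block, a loess correction (span 0.3) for GC content and length over 15324 genes, and leaving out each library were alternatives. Deviations of same-numbered libraries had every correlation over 0.1 for DMSO and FK (0.22 to 0.42) and for Met and Met+FK (0.17 to 0.23). In the other treatment pairs not every correlation exceeded 0.1, though they reached 0.33 for DMSO and Met and 0.40 for Met and FK. What a replicate number marks is not given in the sources used here.

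All 10 members are named in every comparison. For each pathway list, called genes are named, up to 4 with the largest absolute change in Met against DMSO, and a few others were named after their values were seen. Some of the cell type markers are not reported here. The members and lists were chosen with earlier results of these data known. Of 36366 genes found in GENCODE 44, 83.6% have the same start and end. Lengths and GC content come from GENCODE 44, and promoters from RefSeq (GRCh38.p14, 10 of 10 members matched).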

Additional observations from a re-analysis of the deposited data

How the results depend on the processing

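The calls of SESN2, DDIT4 and PRKAB2 in Met against DMSO, Met+FK against DMSO, Met+FK against FK and Met against FK stood under every alternative, and no called member changed sign. Without the 1.5-fold threshold (adjusted p alone), 8 members passed in Met against DMSO, 3 in FK against DMSO, 8 in Met+FK against DMSO, 7 in Met+FK against FK and 5 in Met against FK. Scaled to the same library total, which moved the median over all genes in Met against DMSO (log2) from 0.01 to 0.13 and their calls from 1964 higher and 1566 lower to 2835 and 1025, 5 members were called in Met+FK against DMSO (PRKAB1 and SESN1 in addition) and 4 in Met against DMSO (PRKAA2 in addition). With the GC and length trend removed, Met+FK against DMSO called 4 members (PRKAB1 in addition) and FK against DMSO 1 (DDIT4), with or without the replicate block, and the interaction passed for 2 members and 0.600% of all genes, or 3 and 6.97% with the replicate block. The replicate block alone gave 3 members in the interaction, where 32.0% of all genes passed, and DESeq2 gave 1 (STK11), where 5.93% did. The replicate block changed no call of a member by both criteria in the 6 comparisons between treatments. Leaving out each library of the treatments compared gave 3 to 4 members in Met against DMSO, 3 to 5 in Met+FK against FK and 0 to 2 in the interaction, the highest counts of the latter 2 without FK replicate 1. Of 890 member values under other settings 854 stayed on their side of the calling rule and 36 newly passed. These settings include that without the 1.5-fold threshold, which can only add passes. A member not called in the main fit counted as unmoved when it lost its pass by adjusted p alone. Depth was lowest for SESN1, with as few as 162 read pairs.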
